A study of Mus musculus with 9 samples.

Results

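Canonical Wnt signaling turns on the stability of β-catenin. This report covers the 10 genes of the β-catenin destruction complex and its nuclear end, chosen by name from the 17943 genes of the count table, with earlier results of these data known: *Ctnnb1* (β-catenin), *Apc*, *Axin1*, *Axin2*, *Gsk3b*, *Lef1*, *Tcf7*, *Tcf7l1*, *Tcf7l2* and *Bcl9l*. In the destruction complex, the scaffold proteins APC, AXIN1 and AXIN2 hold β-catenin next to the kinase GSK3β, whose phosphorylation marks it for ubiquitination and breakdown. When a Wnt ligand stops the complex, β-catenin enters the nucleus, binds a TCF/LEF factor on DNA and recruits co-activators through BCL9 or BCL9L. In skin this pathway is best known for its part in hair follicle formation and growth, and a second pool of β-catenin joins cadherins to the cytoskeleton at cell contacts.

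Bulk RNA-Seq was performed on skin from 5 control mice and 4 *Supt6*-KO mice, all harvested on day 10 after the final injection. *Supt6* encodes SPT6, a histone chaperone that travels with elongating RNA polymerase II. The *Supt6*-KO mice were K14-CreERT; *Supt6* fl/fl mice that received tamoxifen by daily intraperitoneal injection during the first telogen, and the controls, which the labels call wild type, were according to the study *Supt6* fl/fl mice given only the corn oil vehicle. Cre therefore acted under the keratin 14 promoter of basal keratinocytes, while the dermis, fat, vessels and blood cells in the same samples do not use that promoter, and tamoxifen was given to the *Supt6*-KO mice alone. The study describes dorsal skin and the labels name ear. Cartilage markers were present in the controls (*Acan* at 155 ± 83.8 CPM, SD, n = 5, where CPM is the count scaled by the total count and its TMM factor), and the posterior trunk Hox genes *Hoxc8*, *Hoxc10* and *Hoxb9* had at most 3 counts in each of the 9 mice. Libraries held 29627334 to 30967109 estimated counts per mouse.

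*Supt6* was at 74.5, 56.6, 63.6, 91.1 and 96.7 CPM in control mice 1 to 5 and at 28.6, 24.1, 21.9 and 28.4 CPM in *Supt6*-KO mice 1 to 4. The mean of the *Supt6*-KO mice was 33.7% of the control mean in whole skin, and no *Supt6*-KO mouse reached the lowest control. The log2 fold change of *Supt6* was -1.57, and it moved to -0.88 (adjusted p = 0.00090, edgeR) after the correction for transcript length described below. *Supt6*-KO mouse 4 had the TMM factor closest to the controls (0.91, against 0.674 to 0.781 in the other 3 *Supt6*-KO mice and 1.2 to 1.31 in the controls), and it had the highest value of the 4 for *Ctnnb1*, *Apc*, *Gsk3b*, *Tcf7*, *Tcf7l1* and *Bcl9l*. Read from the Y-linked genes *Ddx3y*, *Kdm5d*, *Uty* and *Eif2s3y*, control mice 1 and 3 were female (summed level below 0.1 CPM) and the other 7 mice male (152 to 280 CPM).

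The 4 TCF/LEF factors share a DNA-binding HMG box, and their transcripts were compared with each other for stretches that reads could confuse. The stretch of 60 coding bases that they share best is shown here for each gene, read from the GENCODE vM21 transcript with the longest coding sequence, with capitals at the 45 positions that are identical in all 4:
Lef1: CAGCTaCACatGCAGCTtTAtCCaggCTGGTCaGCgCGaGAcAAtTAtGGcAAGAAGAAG
Tcf7: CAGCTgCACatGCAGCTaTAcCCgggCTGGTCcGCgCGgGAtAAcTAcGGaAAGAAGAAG
Tcf7l1: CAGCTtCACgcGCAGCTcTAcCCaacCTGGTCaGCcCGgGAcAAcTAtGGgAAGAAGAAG
Tcf7l2: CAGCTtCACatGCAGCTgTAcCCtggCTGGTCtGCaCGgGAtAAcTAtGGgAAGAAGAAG
The stretch runs across an exon junction in each gene. In mm10 it lies at chr3:131200355-131204267 for *Lef1* (plus strand, exons 9 and 10 of 12), at chr11:52256295-52256787 for *Tcf7* (minus strand, exons 8 and 9 of 10), at chr6:72630020-72631059 for *Tcf7l1* (minus strand, exons 11 and 12 of 13) and at chr19:55919571-55923907 for *Tcf7l2* (plus strand, exons 10 and 11 of 14), with the intron between. The longest run of identical bases between any pair of the 4 transcripts was 23 bases, which is shorter than a read of this study. It was found for *Lef1* and *Tcf7l1* and for *Tcf7l1* and *Tcf7l2*, while *Tcf7* and *Tcf7l1* shared no run longer than 14 bases.

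In the controls, *Ctnnb1* was by far the most abundant of the 10 transcripts per unit of length. The authors' TPM values, which are scaled by transcript length, gave 228 ± 52.4 TPM for *Ctnnb1* (SD, n = 5 control mice). *Axin1* followed at 33.6 ± 3.83 TPM, and the ranges of these 2 genes did not overlap with each other or with any other member. *Axin2* (15.4 ± 3.03 TPM), *Gsk3b* (14.7 ± 3.67 TPM) and *Bcl9l* (13.2 ± 5.25 TPM) formed the next level and differed from each other by less than the spread between mice. *Tcf7* had the highest mean of the TCF/LEF factors at 7.91 ± 1.45 TPM. Its range met that of *Bcl9l* above it and those of *Apc* (6.04 ± 1.98 TPM), *Tcf7l2* and *Tcf7l1* below it. *Tcf7l2* (5.51 ± 1.51 TPM), *Tcf7l1* (4.41 ± 2.07 TPM) and *Lef1* (2.31 ± 1.45 TPM) came last, with overlapping ranges. TPM of the *Supt6*-KO mice were analysed for mouse 4 alone, so the groups are compared here in CPM.

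Of the 10 genes, 9 were lower in *Supt6*-KO skin and 0 were higher (edgeR quasi-likelihood test, adjusted p under 0.05 after Benjamini-Hochberg correction across the 16426 genes that could be tested). *Axin1* was the gene that did not pass. Change was widespread in this skin, since 36.8% of all genes tested were lower and 34.1% were higher by the same test. The median log2 fold change of the 10 genes was -1.60, beside -0.07 over all genes tested, and 8 of the 10 had every *Supt6*-KO mouse below every control mouse, as had 31.8% of all genes. None had every *Supt6*-KO mouse above every control (28.9% of all genes), and 7 of the 10 were lower by at least 2-fold (24.9% of all genes). *Apc*, *Axin2*, *Gsk3b*, *Lef1*, *Tcf7l1* and *Tcf7l2* were among the Wnt genes that the study displayed from these same mice, so their direction is not independent evidence. In whole skin, fewer cells of a type and less RNA per cell cannot be told apart.

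**Figure D1:**
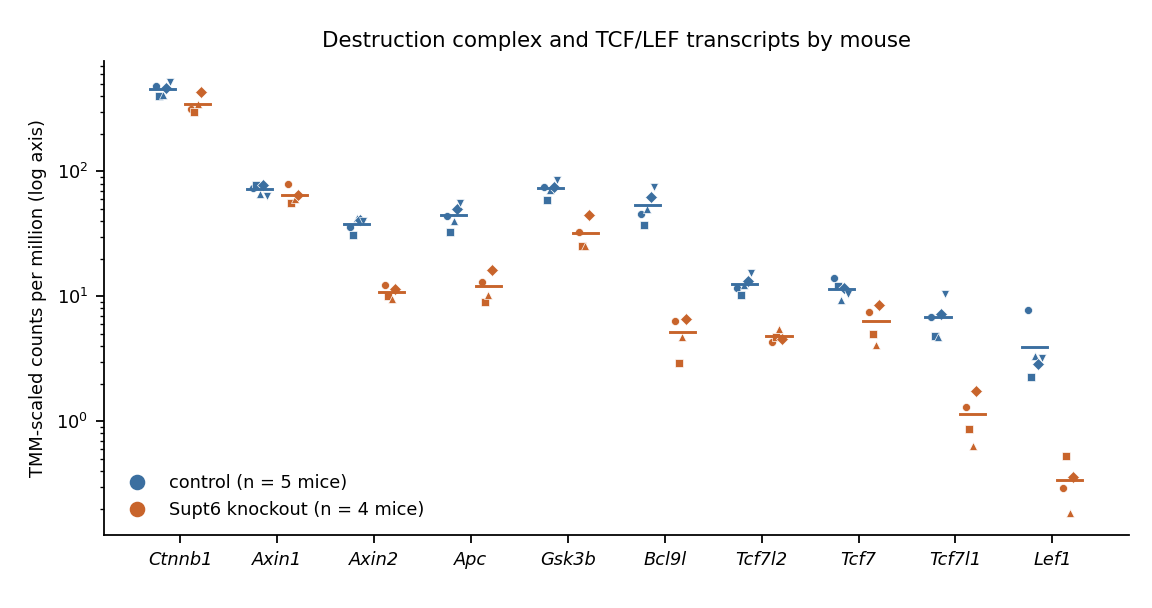
Level of the 10 transcripts in each mouse, in TMM-scaled CPM on a log axis, with controls in blue (5 mice), *Supt6*-KO mice in orange (4 mice), a horizontal bar at each group mean and a marker shape for each mouse number. The groups overlap for *Ctnnb1* and *Axin1* and are apart for the other 8 genes, most widely for *Bcl9l* and *Lef1*.

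*Ctnnb1* (NCBI gene 12387, chr9:120933400-120960507, plus strand) encodes β-catenin itself. It was at 479, 399, 410, 469 and 517 CPM in the controls and at 313, 298, 347 and 436 CPM in the *Supt6*-KO mice. *Supt6*-KO mouse 4 lay within the control range and the other 3 lay below it. The log2 fold change was -0.38 (SE 0.15, adjusted p = 0.040), or 76.7% of the control level, and the exact permutation test over mice (two-sided) gave p = 0.0476. The call rested on single mice: it was lost without control mouse 1 (-0.36, adjusted p = 0.085), control mouse 4 (-0.37, adjusted p = 0.077), control mouse 5 (-0.33, adjusted p = 0.076), *Supt6*-KO mouse 1 (-0.34, adjusted p = 0.10), *Supt6*-KO mouse 2 (-0.33, adjusted p = 0.10) or *Supt6*-KO mouse 3 (-0.39, adjusted p = 0.074, edgeR). It was also lost with sex as a covariate (-0.41, adjusted p = 0.076).

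Among the scaffolds, *Apc* and *Axin2* fell steeply and *Axin1* did not pass the test. *Axin2* (NCBI gene 12006, chr11:108917828-108950783, plus strand), which is both a scaffold and a widely used target gene of β-catenin, was at 36, 31.3, 42.6, 40.5 and 39.9 CPM in the controls and at 12.2, 10.1, 9.61 and 11.4 CPM in the *Supt6*-KO mice. The groups lay far apart and were both tight, with coefficients of variation of 11.8% and 11.1%. Its log2 fold change was -1.81 (SE 0.13, adjusted p = 1.0e-06), or 28.5% of the control level. *Apc* (NCBI gene 11789, chr18:34220297-34322190, plus strand), the large scaffold that is often mutated in colon tumors, was at 44.4, 32.6, 40, 50.5 and 56.2 CPM in the controls and at 13, 9.07, 10.2 and 16.4 CPM in the *Supt6*-KO mice, again without overlap. Its log2 fold change was -1.88 (SE 0.21, adjusted p = 1.2e-05). *Axin1* (NCBI gene 12005, chr17:26131217-26195811, plus strand), the scaffold that is made independently of Wnt activity, was at 63.4 to 78.1 CPM in the controls and at 55.5 to 79.1 CPM in the *Supt6*-KO mice. The groups overlapped over most of that range (log2 fold change -0.15, SE 0.13, adjusted p = 0.32, exact permutation p = 0.25).

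*Gsk3b* (NCBI gene 56637, chr16:38089001-38246084, plus strand), the kinase of the complex, was at 75.3, 59.2, 71, 75.8 and 85.2 CPM in the controls and at 33.1, 25.5, 25.5 and 44.6 CPM in the *Supt6*-KO mice. The highest *Supt6*-KO value, in mouse 4, was below the lowest control. The log2 fold change was -1.19 (SE 0.18, adjusted p = 0.00012). With the corrections for transcript length and gene span described below, *Gsk3b* was at -0.32 and -0.35 and no longer passed (adjusted p = 0.13 and 0.10, edgeR). Its paralog *Gsk3a*, which can stand in for it in the complex, fell by 0.90 on the log2 scale (SE 0.20, adjusted p = 0.0016).

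*Bcl9l* (NCBI gene 80288, chr9:44482738-44511906, plus strand), the adaptor that carries Pygopus co-activators to β-catenin, fell to 9.52% of the control level. It was at 45.8, 37.2, 49.9, 62.5 and 75 CPM in the controls and at 6.35, 2.93, 4.71 and 6.61 CPM in the *Supt6*-KO mice. The lowest control thus had several times the level of the highest *Supt6*-KO mouse. The log2 fold change was -3.38 (SE 0.28, adjusted p = 1.8e-06), and 2.61% of all genes tested had a more negative one. Its paralog *Bcl9* fell as well, from 9.3 ± 2.11 CPM in the controls to 2.13 ± 0.67 CPM (SD over 5 and 4 mice), which is -2.13 on the log2 scale (SE 0.26, adjusted p = 2.2e-05).

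All 4 TCF/LEF factors were lower in *Supt6*-KO skin, by different amounts. *Lef1* (NCBI gene 16842, chr3:131110297-131224357, plus strand), which marks the hair matrix and precortex, was at 7.84, 2.25, 3.35, 2.87 and 3.23 CPM in the controls and at 0.29, 0.53, 0.18 and 0.36 CPM in the *Supt6*-KO mice. Control mouse 1 stood far above the other 4 controls, and the *Supt6*-KO values rested on 7, 11, 4 and 10 counts. The log2 fold change was -3.51 (SE 0.45, adjusted p = 3.5e-05), and -3.09 without control mouse 1 (adjusted p = 1.9e-05).

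*Tcf7l1* (NCBI gene 21415, chr6:72626371-72789045, minus strand), also called TCF3 and mostly a repressor that is known from hair follicle stem cells, was at 6.82, 4.85, 4.76, 7.17 and 10.4 CPM in the controls and at 1.29, 0.86, 0.64 and 1.76 CPM in the *Supt6*-KO mice. No value of a *Supt6*-KO mouse reached the controls (log2 fold change -2.56, SE 0.34, adjusted p = 4.3e-05). *Tcf7l2* (NCBI gene 21416, chr19:55741797-55933659, plus strand), or TCF4, ranged from 10.2 to 15.3 CPM in the controls and from 4.35 to 5.49 CPM in *Supt6*-KO skin (a log2 fold change of -1.39, SE 0.16, adjusted p = 1.5e-05). *Tcf7* (NCBI gene 21414, chr11:52246527-52283383, minus strand), or TCF1, which is best known from T cells, ranged from 9.36 to 14.1 CPM in the controls and from 4.12 to 8.59 CPM in the *Supt6*-KO mice. Its change was the smallest of the 4 (log2 fold change -0.87, SE 0.23, adjusted p = 0.0048), but with a correction for gene span, the length of the gene with its introns, that of *Tcf7l2* was smaller (-0.46, adjusted p = 0.020, against -0.71 for *Tcf7*, adjusted p = 0.015, edgeR). The same correction moved *Tcf7l1* to -1.70 (adjusted p = 0.00076), *Lef1* to -2.82 (adjusted p = 0.00018) and *Apc* to -1.23 (adjusted p = 0.00025, edgeR). For each of the 8 genes without overlap, the exact permutation p was 0.0159 (two-sided), the smallest value that 5 against 4 mice allow.

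How far these changes reach depends on 2 features of the data. First, with library totals in place of TMM factors the all-gene median moved from -0.07 to -0.76, and all 10 genes, *Axin1* included (-0.83, adjusted p = 0.00081), were lower, as were 54.6% of all genes (16.9% were higher). Second, the change followed transcript length: with genes divided into 5 equal groups by transcript length, the group with the shortest transcripts (204 to 1679 bases) was at a median of 0.89 on the log2 scale with 15.6% lower, and the group with the longest (4986 bases or more) a median of -0.86 with 60.6% lower. *Apc* (12811 bases), *Gsk3b* (8303 bases) and *Bcl9l* (6771 bases) were in that last group, and *Ctnnb1*, *Axin1*, *Axin2* and *Tcf7l2* in the group before it (3523 to 4985 bases). After correction for transcript length, *Gsk3b* (-0.32, adjusted p = 0.13) and *Ctnnb1* (-0.21, adjusted p = 0.24) no longer passed the test and *Apc* moved to -0.72 (adjusted p = 0.0081). *Bcl9l* (-2.66), *Axin2* (-1.48), *Lef1* (-3.38), *Tcf7l1* (-2.55), *Tcf7l2* (-1.20) and *Tcf7* (-1.04) were still lower (adjusted p of at most 0.0018, edgeR), and *Axin1* was at 0.06 (adjusted p = 0.68).

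**Figure D2:**
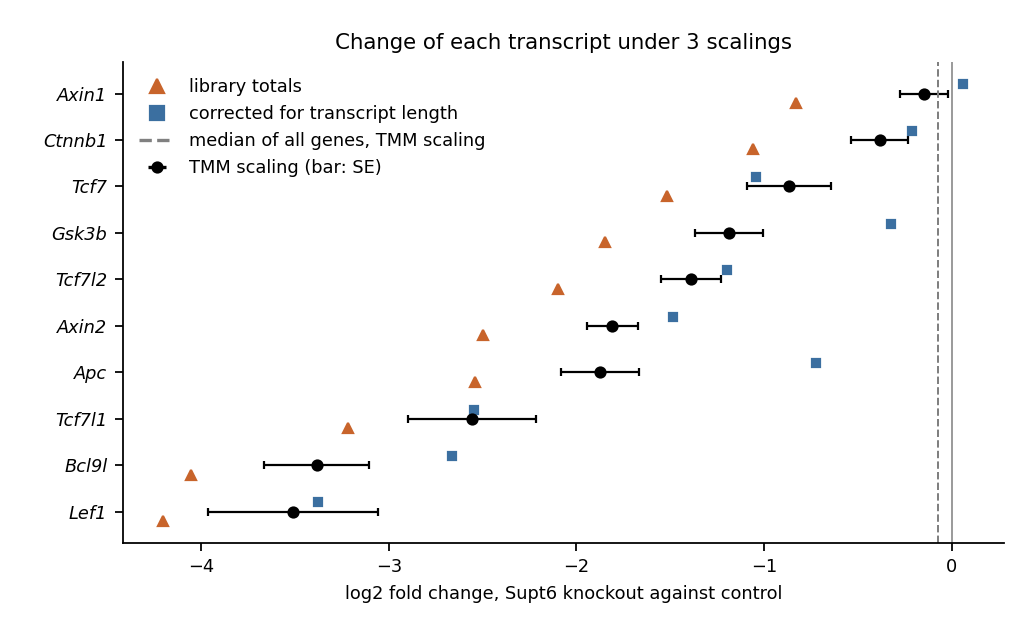
Log2 fold change of the 10 transcripts in *Supt6*-KO against control skin with TMM scaling (black, bar: SE), with library totals (orange triangles) and after correction for transcript length (blue squares), with the median of all genes as a dashed line. Library totals shift all 10 genes to the left, and the length correction moves *Apc* from -1.88 to -0.72 and *Gsk3b* from -1.19 to -0.32 but leaves *Lef1* and *Tcf7l1*, which the gene span correction (not plotted) moved to -2.82 and -1.70, within 0.2 of their values, while *Axin1* crosses 0.

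Ratios between transcripts of the same mouse do not depend on the scaling of libraries, although they do depend on the trend with length. A family of 12 such values (8 log2 ratios and 4 shares) was compared by two-sided exact permutation tests over the 9 mice with Benjamini-Hochberg adjustment. Relative to *Ctnnb1*, *Apc* transcripts fell by 1.50 on the log2 scale (control -3.36 ± 0.17, SD, n = 5, *Supt6*-KO -4.86 ± 0.24, SD, n = 4, adjusted exact permutation p = 0.027). *Gsk3b* fell by 0.83 and *Bcl9l* by 3.02 relative to *Ctnnb1* (adjusted exact permutation p = 0.027 for both). All 4 *Supt6*-KO mice were below all 5 controls in these 3 ratios. The transcripts differ in length, and after the length correction the log2 fold changes were -0.72 for *Apc*, -0.32 for *Gsk3b* and -2.66 for *Bcl9l* beside -0.21 for *Ctnnb1*, differences that were not tested. *Axin1* relative to *Ctnnb1* was 0.24 higher, a difference within the spread between mice (adjusted exact permutation p = 0.33).

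Within pairs of related genes, the difference in change passed the test for 3 of 4 pairs with all 9 mice. *Axin2* was at 0.53 of the *Axin1* count in the controls and 0.17 in the *Supt6*-KO mice (geometric means), a log2 difference of -1.65 (adjusted exact permutation p = 0.027). *Bcl9l* counts were 5.76 times those of *Bcl9* in the controls and 2.39 times in *Supt6*-KO skin (log2 difference -1.27, adjusted exact permutation p = 0.027), so the adaptor that was more abundant in controls lost more. *Tcf7l1* fell relative to *Tcf7l2* by 1.21 on the log2 scale (adjusted exact permutation p = 0.042), which was lost without control mouse 1, 2, 4 or 5 (adjusted exact permutation p of 0.069 to 0.076) or any *Supt6*-KO mouse. The ratio of *Gsk3b* to *Gsk3a* moved by -0.26, from -0.16 ± 0.22 (SD, n = 5) to -0.42 ± 0.13 (SD, n = 4), which did not pass (adjusted exact permutation p = 0.095) but did without control mouse 2 (-0.34, adjusted exact permutation p = 0.038). After the length correction the order of the 2 changes turned round, with *Gsk3b* at -0.32 (adjusted p = 0.13) and *Gsk3a* at -1.16 (adjusted p = 0.00036, edgeR).

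The make-up of the TCF/LEF pool differed between the groups. As a share of the summed counts per kilobase of the 4 factors, *Lef1* was at 16.9%, 6.53%, 10.0%, 7.16% and 7.32% in the controls and at 1.78%, 4.04%, 1.54% and 1.92% in the *Supt6*-KO mice (adjusted exact permutation p = 0.027). *Tcf7l1* went from 19.3 ± 4.61% (SD, n = 5) to 8.38 ± 1.96% (SD, n = 4), again without overlap (adjusted exact permutation p = 0.027). *Tcf7* took a larger share, 41.2 ± 5.83% in the controls and 58.1 ± 7.75% in the *Supt6*-KO mice (adjusted exact permutation p = 0.042), a call that held with 1 of the 9 mice left out, control mouse 2, and was lost without each of the other 8. *Supt6*-KO mouse 3, at 48.9%, lay within the control range of 33.3% to 49.5%. The share of *Tcf7l2* was 29.9 ± 4.26% and 31.3 ± 9.46% (adjusted exact permutation p = 0.79). These shares, like the ratios, depend on the trend with length. After the length correction the log2 fold changes were -3.38 for *Lef1*, -2.55 for *Tcf7l1*, -1.20 for *Tcf7l2* and -1.04 for *Tcf7*. After the gene span correction they were -2.82, -1.70, -0.46 and -0.71, and the differences between the 4 were not tested.

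**Figure D3:**
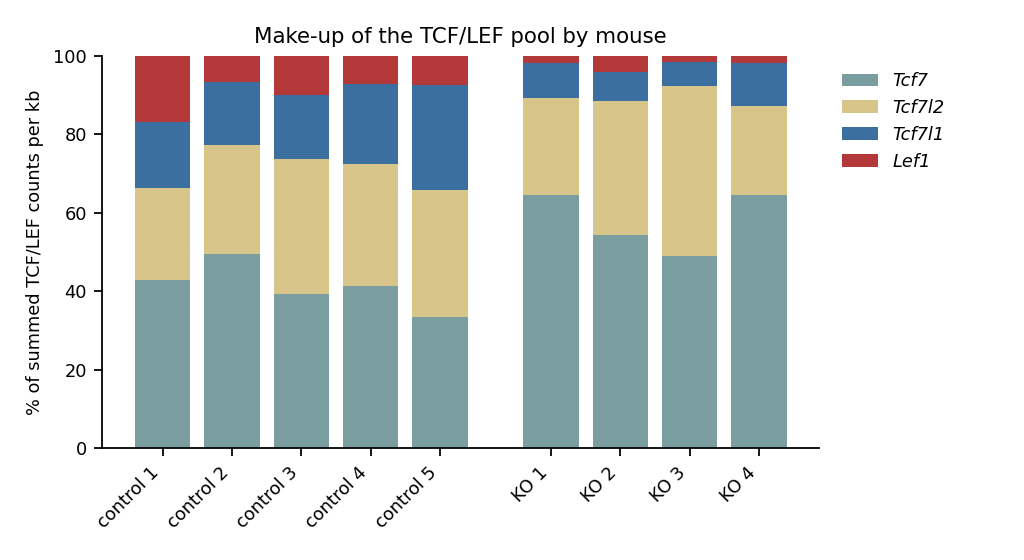
Share of each TCF/LEF factor in the summed TCF/LEF counts per kilobase, in percent, as a stacked bar for each of 5 control and 4 *Supt6*-KO mice. *Lef1* (red) and *Tcf7l1* (blue) are smaller in every *Supt6*-KO mouse than in any control, and *Tcf7* (green) makes up 48.9% to 64.5% there.

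Counts per gene sum full-length and shorter forms, and *Lef1* and *Tcf7l2* both have internal start sites in RefSeq, whose products can lack the β-catenin-binding end of the protein. The 300-base windows around RefSeq start sites (250 bases before and 50 after, GRCm38.p6) were searched on both strands for the core motifs of TCF/LEF proteins, CTTTG followed by AT, AA, TT or TA. Windows were matched for 7 of the 10 genes, 13 windows in all, and 2 of the 13 held a motif, beside 5544 of all 32851 windows (16.9%). Both were internal starts, and their upstream bases are shown because they are where a TCF/LEF motif lies in the genes of TCF/LEF factors themselves, with the motif in capitals.
Lef1, internal start, chr3:131156044-131156293, plus strand: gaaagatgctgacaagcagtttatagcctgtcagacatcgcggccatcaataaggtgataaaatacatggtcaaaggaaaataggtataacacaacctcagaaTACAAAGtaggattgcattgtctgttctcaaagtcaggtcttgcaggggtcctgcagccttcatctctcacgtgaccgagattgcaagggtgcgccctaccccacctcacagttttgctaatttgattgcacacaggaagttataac
Tcf7l2, internal start, chr19:55895071-55895320, plus strand: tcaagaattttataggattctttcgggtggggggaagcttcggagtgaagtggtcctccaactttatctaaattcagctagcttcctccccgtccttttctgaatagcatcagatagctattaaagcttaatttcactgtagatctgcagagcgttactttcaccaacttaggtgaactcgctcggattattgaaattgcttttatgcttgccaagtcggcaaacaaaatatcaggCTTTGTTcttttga
In the *Lef1* window the capitals are CTTTGTA read on the minus strand, 147 bases before a start that lies 45997 bases after the first start of the gene. In the *Tcf7l2* window they are CTTTGTT on the plus strand, 14 bases before a start that lies 153511 bases after the first. The counts do not tell which start was used, and a match is a description of the letters only.

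The partners of the destruction complex changed in both directions, as did all genes tested. Of 23 such genes, 12 were lower and 7 higher, with a median log2 fold change of -0.32. All genes tested had a median of -0.07, with 36.8% lower and 34.1% higher, and the share of higher partners was near this. With TMM scaling the 3 largest increases were in *Ppp2ca*, the catalytic subunit of the phosphatase PP2A (255 ± 28.4 to 556 ± 45.4 CPM, log2 fold change 1.12), *Csnk1a1*, the kinase that primes β-catenin for GSK3β (482 ± 53.5 to 962 ± 66.8 CPM, 1.00), and *Dvl1*, a Dishevelled protein that passes the Wnt signal to the complex (0.57, adjusted p = 0.0030, edgeR). With library totals, where 16.9% of all genes were higher and 54.6% lower, 15 of the 23 were lower and 1 was higher, *Ppp2ca* (0.44, adjusted p = 0.020), and *Csnk1a1* (0.31) and *Dvl1* (-0.15) did not pass. The largest decreases with a level of at least 1 CPM were in *Dvl3* (30.9 ± 5.32 to 6.25 ± 2.13 CPM, log2 fold change -2.30), *Tnks*, the tankyrase that marks AXIN for breakdown (-1.87), and *Amer1*, a membrane anchor of APC (-1.63). After the length correction *Tnks* was at -0.94 (adjusted p = 0.0037), *Amer1* at -0.75 (adjusted p = 0.0024) and *Ppp2ca* at 1.88 (adjusted p = 7.8e-07, edgeR). The order changed with it: *Btrc* (-1.28) and *Gsk3a* (-1.16) then fell more than *Tnks* and *Amer1*. *Tnks2* (1.12, adjusted p = 9.2e-06, edgeR) then rose more than *Dvl1* (0.67). *Btrc*, the F-box protein that recognizes phosphorylated β-catenin, fell by 1.29 on the log2 scale (SE 0.16, adjusted p = 2.6e-05), and *Apc2*, the other APC gene, was low in both groups (0.38 ± 0.19 and 0.093 ± 0.16 CPM, adjusted p = 0.039, and 0.24 after the length correction, edgeR).

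Of 21 nuclear cofactors and repressors, 12 were lower and 4 higher, with a median log2 fold change of -0.54. Among all genes tested 36.8% were lower and 34.1% higher, with a median of -0.07. The acetyltransferase *Crebbp* went from 17.1 ± 4.75 to 2.46 ± 0.84 CPM (log2 fold change -2.79), the Pygopus gene *Pygo1* from 11.2 ± 1.99 to 1.88 ± 0.26 CPM (-2.57), and *Bcl9* by the amount given above, so that the transcripts of *Pygo1*, *Bcl9* and *Bcl9l* were all lower. After the length correction *Crebbp* was at -1.75 (adjusted p = 0.00022), *Pygo1* at -1.74 (adjusted p = 1.2e-05) and *Bcl9* at -1.48 (adjusted p = 0.00034, edgeR). The higher genes included the β-catenin antagonist *Cby1* (13.9 ± 2.21 to 33.5 ± 9.77 CPM, log2 fold change 1.27), the co-repressor *Ctbp2* (1.04) and *Cdc73*, a subunit of the PAF1 complex (0.46, adjusted p = 0.020, edgeR). With library totals (16.9% of all genes higher and 54.6% lower) 16 of the list were lower and *Cby1* was the only higher gene (0.54, adjusted p = 0.013). Of the 21, 6 were higher and 9 lower after the length correction (31% and 34.4% of all genes). There *Cby1* did not pass (0.32, adjusted p = 0.18) and *Cdc73* moved to 1.54 (adjusted p = 7.8e-06, edgeR). After the gene span correction 7 were higher and 10 lower (36.4% and 32% of all genes). Both shares of higher genes were near those of all genes.

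The genes that β-catenin is known to switch on, or that feed back on the pathway, were mostly lower. Of 15 listed, 13 could be tested, of which 10 were lower and 1 was higher, with a median log2 fold change of -1.39. Among all genes tested 36.8% were lower and 34.1% higher, with a median of -0.07. After the length correction 8 of the list were lower and 1 was higher (34.4% and 31% of all genes). *Dkk1* and *Dkk4* had at most 3 counts in every mouse and were not tested. The largest decreases were in *Nkd2* (24.7 ± 3.91 to 3.1 ± 0.56 CPM, log2 fold change -2.99) and *Nkd1* (5.09 ± 1.59 to 1.29 ± 0.37 CPM, -1.97), which encode Naked cuticle inhibitors of Dishevelled, and in *Znrf3* (19.6 ± 2.78 to 6 ± 0.98 CPM, -1.71), a ubiquitin ligase that removes Wnt receptors. These 3 act against the pathway, as does *Axin2*. *Cd44*, a hyaluronan receptor that other pathways also regulate, was the higher gene with TMM scaling (138 ± 8.54 to 238 ± 33 CPM, log2 fold change 0.78). With library totals it was at 0.11 and did not pass (adjusted p = 0.59), and after the length correction it was at 1.36 (adjusted p = 3.4e-06, edgeR). *Znrf3* moved to -1.04 with that correction (adjusted p = 0.00020, edgeR). The order changed there, since *Notum* (-1.74, adjusted p = 0.00040, edgeR) fell more than *Nkd1* (-1.68) and *Znrf3*.

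Most adhesion partners of β-catenin were lower as well with TMM scaling. Of 9 genes, 7 were lower, 0 were higher and 2 did not pass, with a median log2 fold change of -1.21. Among all genes tested 36.8% were lower and 34.1% higher, with a median of -0.07. After the length correction 5 of the 9 were lower (34.4% of all genes), and after the gene span correction 4 (32% of all genes). *Jup*, or plakoglobin, the closest relative of β-catenin, went from 802 ± 136 to 245 ± 82.3 CPM (log2 fold change -1.71, SE 0.24, adjusted p = 6.0e-05), beside -0.38 for *Ctnnb1*, a difference that was not tested itself. *Ctnna1*, the α-catenin that links β-catenin to actin, went from 235 ± 33.5 to 86.8 ± 16.1 CPM (-1.43), *Ctnnd1*, or p120-catenin, from 224 ± 32.1 to 90.9 ± 33 CPM (-1.30, and -0.63 after the length correction, adjusted p = 0.026, edgeR), and the low transcript *Cdh2*, N-cadherin, from 2.56 ± 1.22 to 0.85 ± 0.098 CPM (-1.59). *Cdh1*, the epithelial cadherin, went from 323 ± 30.8 to 208 ± 45.2 CPM with overlap between the groups (-0.63, adjusted p = 0.0035), and after the length correction it no longer passed (-0.27, adjusted p = 0.14, edgeR). *Bcl9*, *Pygo1*, *Dvl2*, *Dvl3*, *Tnks*, *Btrc*, *Amer1*, *Nkd1*, *Nkd2*, *Notum*, *Rnf43*, *Apcdd1*, *Tle3*, *Chd8* and *Ctnnd1* were also among the Wnt genes that the study displayed from these mice.

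**Figure D4:**
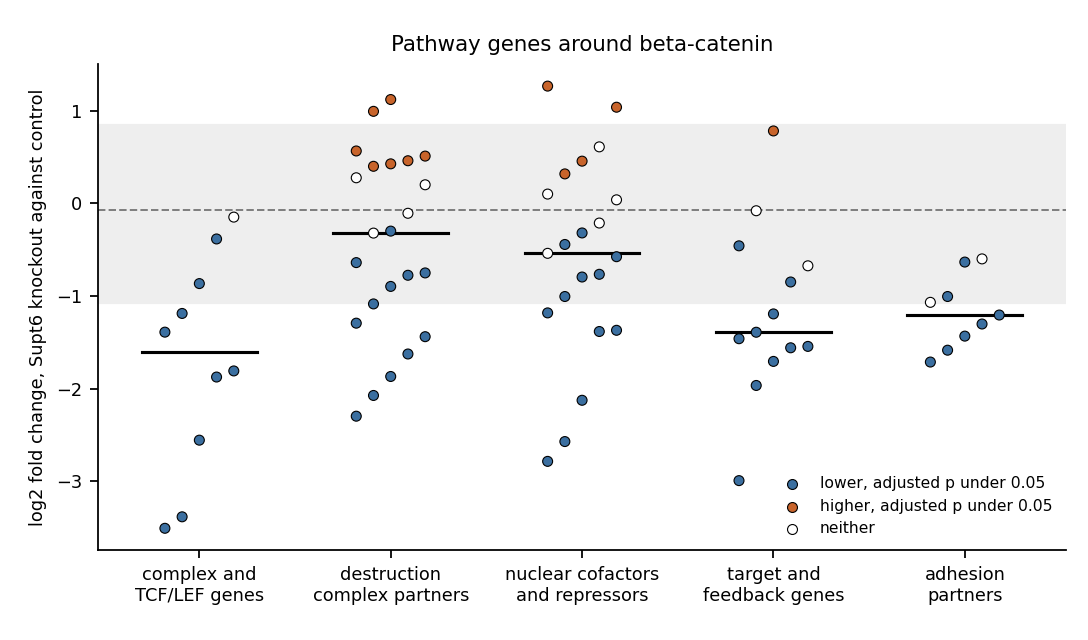
Log2 fold change in *Supt6*-KO against control skin of each tested gene in 5 groups, the 10 genes described here and 4 lists around them. Filled points passed an adjusted p of 0.05 (blue lower, orange higher, TMM scaling), open points did not, black bars are medians (-1.60, -0.32, -0.54, -1.39 and -1.21 from left to right), and the dashed line and grey band are the median and the middle quartiles of all genes tested. With library totals the orange points number 1, 1 and 0 in the partner, cofactor and target lists.

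Many cell type markers changed as well, in both directions, and their part in the changes of these genes was not tested. Their counts stand beside 36.8% lower and 34.1% higher among all genes tested. The 10 markers of hair matrix, cortex and inner root sheath summed to 1998, 321, 755, 576 and 179 CPM in the controls and to 83.9, 109, 114 and 109 CPM in the *Supt6*-KO mice, and 9 of the 10 were lower. *Krt71* had the highest mean in the controls (212 CPM) and was at 0.27 to 0.65 CPM in the *Supt6*-KO mice, where *Tchh* had the highest mean (48.2 CPM). Control mouse 1, with the highest sum, was also the mouse with the highest *Lef1*. In control mouse 5 most of the sum was *Gata3* (112 CPM) and *Krt71* was at 0.69 CPM. All 6 hair follicle stem cell markers were lower (156 to 253 CPM summed against 102 to 113 CPM, *Cd34* the highest), and of 6 dermal papilla markers 4 were lower and 1 higher (45.6 to 96.3 against 13 to 19.6 CPM, *Corin* the highest in the controls and the higher gene, *Crabp1*, in the *Supt6*-KO mice).

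**Figure D5:**
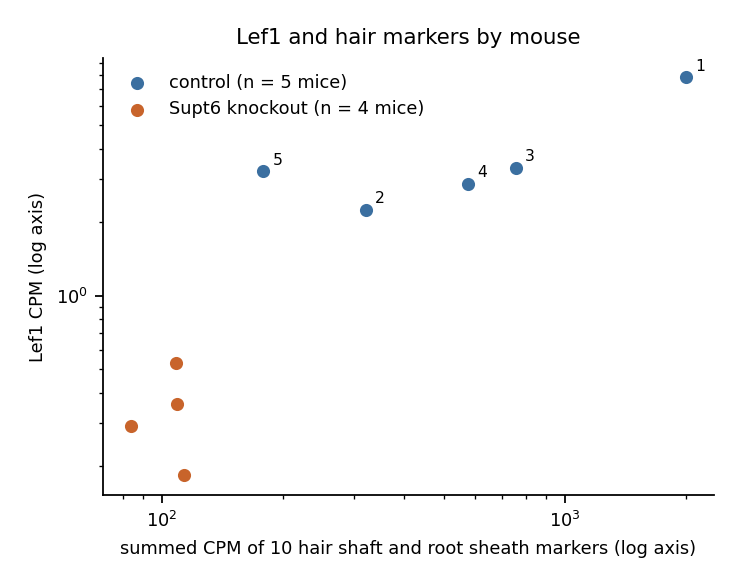
*Lef1* level in CPM against the summed CPM of 10 markers of hair matrix, cortex and inner root sheath, both on log axes, for 5 control mice (blue, numbered) and 4 *Supt6*-KO mice (orange). Control mouse 1 is highest on both axes, the *Supt6*-KO mice are lowest on both, and the other 4 controls span 179 to 755 CPM of markers at 2.25 to 3.35 CPM of *Lef1*.

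Of 7 markers of basal keratinocytes, the cells in which the keratin 14 promoter is active, 6 were lower. Their sum was 11643 to 13313 CPM in the controls and 8402, 5801, 7014 and 14105 CPM in the *Supt6*-KO mice, with mouse 4 above the control range. *Krt5* had the highest mean in the controls (4631 CPM) and was lower (log2 fold change -0.86, adjusted p = 0.0048, edgeR), while *Krt14*, which had the highest mean in the *Supt6*-KO mice (5355 CPM), did not pass the test. Of 5 suprabasal markers 1 was lower and 2 were higher (18114 to 20610 CPM summed in the controls, 17109 to 36035 CPM in the *Supt6*-KO mice, *Krt10* most abundant). *Tcf7* is a T cell gene as well, and of 9 T cell markers 4 were lower and 2 higher (36.8% and 34.1% of all genes). Their sum was 109 to 125 CPM in the controls and 49.4 to 84.4 CPM in the *Supt6*-KO mice, most of it *Thy1*. The lower markers included *Cd3e* (log2 fold change -4.13) and *Cd3g* (-2.65), and the higher ones included *Cd5* (2.36). Neutrophil markers were higher in 5 of 6 (4.33 to 9.41 CPM summed against 27.7 to 83.6 CPM, *Cxcr2* the highest in the controls and *Retnlg*, with 53.4 CPM in mouse 3, in the *Supt6*-KO mice, while *Mpo* was lower, 0.35 to 0.010 CPM). Macrophage markers were higher in 5 of 6 (81.8 to 192 against 208 to 256 CPM, *Mrc1* the highest in the *Supt6*-KO mice, while *Csf1r*, the highest in the controls, was lower, 41.9 to 11.8 CPM). Melanocyte markers were higher in 5 of 5 (46.7 to 65.2 against 99.7 to 177 CPM, *Dct* the highest in both).

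Most markers of the deeper layers, which do not use the keratin 14 promoter, were lower as well. Fibroblast markers were lower in 4 of 6, but their sums overlapped (2928 to 10542 CPM in the controls, 1948 to 3781 CPM in the *Supt6*-KO mice). *Col3a1*, the most abundant of them, did not pass (log2 fold change -0.31, adjusted p = 0.43, edgeR). Endothelial markers were lower in 4 of 5 (48 to 104 against 30.6 to 41.1 CPM summed, *Pecam1* most abundant). Skeletal muscle markers were lower in 4 of 5 (3091 to 4185 against 695 to 1180 CPM, *Acta1* the highest in the controls and *Mylpf* in the *Supt6*-KO mice). Cartilage markers were lower in 5 of 5 tested (311 to 759 against 45.8 to 56.6 CPM, *Acan* the highest in the controls and *Cnmd* in the *Supt6*-KO mice, with *Matn1* at the floor in all mice). Adipocyte markers were lower in 4 of 5, but their sum, most of it *Fabp4*, overlapped between the groups (212 to 387 against 266 to 406 CPM). These sums are CPM levels and are subject to the trend with transcript length described above.

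The genes whose level varied most like that of *Lef1*, *Axin2* and *Ctnnb1* within the groups were found from log2 CPM centred on each group mean, over 9 mice and 11214 genes with a mean of at least 5 CPM. For *Axin2* they were *Herc3* (Pearson r = 0.98), *Itga2* (0.97), *Usp49* (0.96) and *Marf1* (0.95). *Ctnnb1* varied most like *Ganab* (0.99), *Pde3b* (0.99), *Copg1* (0.98) and *Ctc1* (0.97), and *Lef1* less closely like *Denn2b* (0.83), *Cnksr3* (0.81), *Zfp422* (0.81) and *Hook3* (0.78). The 9 points of each r share libraries and scaling factors, and the highest of 11214 values is high by selection.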

How the data were processed

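RNA-Seq data of skin from 9 mice were used (5 control, 4 *Supt6*-KO). Reads had been aligned to mm10 with Bowtie2 (2.3.4.3), and the authors deposited RSEM (1.3.1) estimated counts for each gene, with TPM values for the controls and *Supt6*-KO mouse 4. The submitters' processing notes also name HISAT and DESeq2 (1.4.5), and the annotation release is not given in the sources used here. Groups came from the sample labels.

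Estimated counts, of which 9% were not whole, were rounded. Genes with at least 10 counts over the 9 mice were tested with edgeR 4.0.16 (R 4.3.3), TMM factors and Benjamini-Hochberg adjustment. Exact permutation tests over mice (scipy 1.17.1) served for shares and ratios (pseudocount 0.5 counts). A count of 3 was taken as the floor in a library, which covers counting error only. Positions are RefSeq's on GRCm38 (17917 of 17943 identifiers matched), and lengths are of the longest basic GENCODE vM21 transcript (17803 genes). The tests were tried on simulated counts first.

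The 10 genes, the lists around them and the tests were chosen with earlier results of these data known. Named by rule were the 10 genes, *Supt6*, up to 3 higher and 3 lower genes of each pathway list (adjusted p under 0.05, at least 1 CPM, no overlap between groups), *Gsk3a*, *Bcl9*, *Apc2*, *Btrc*, *Ctnnd1*, *Cdh1* and *Jup*, the most abundant gene of each marker list and genes at the floor. *Acan* stands for the cartilage list. *Gata3*, *Tnks2*, *Notum*, *Cd3e*, *Cd3g*, *Cd5*, *Mpo* and genes that led a marker list in 1 group alone were named after their values were seen. Alternatives were library totals, upper-quartile factors, DESeq2 1.42.0, other filters, corrections for transcript length and gene span, sex, a replicate block, a test against a 2-fold change, other lengths or none for the shares, a pseudocount of 5, and each mouse left out.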

Additional observations from a re-analysis of the deposited data

Results flagged for a closer look

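Lef1 in control mouse 1 stood apart from the other controls, at 7.84 CPM against a control median of 3.23 CPM, its gap to the next mouse being larger than Dixon's limit for 5 values. The share of *Lef1* among the TCF/LEF factors was 4.04% in *Supt6*-KO mouse 2, far from the other 3 *Supt6*-KO mice (group median 1.85%). The summed level of the hair matrix, cortex and inner root sheath markers was 83.9 CPM in *Supt6*-KO mouse 1, below a group median of 109 CPM. These were 3 of 76 groups of values examined, where chance alone would give about 3.8.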

How the results depend on the processing

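The direction of 9 of the 10 genes, all but *Axin1*, was lower under every alternative that was run (18 for *Lef1*, which was not tested with at least 10 counts required in every mouse, and 19 for the others), and *Apc*, *Axin2*, *Lef1*, *Tcf7l1*, *Tcf7l2* and *Bcl9l* passed the test in all of them. *Ctnnb1* no longer passed with the transcript length correction (-0.21), the gene span correction (-0.33), sex as a covariate (-0.41) or a test against a 2-fold change (-0.38), and ranged from -0.51 to -0.33 with a mouse left out. *Gsk3b* was lost with the 2 corrections (-0.32 and -0.35) and, like *Tcf7*, against a 2-fold change (-1.19 and -0.87). *Axin1* was lower with library totals (-0.83) and turned to 0.064 and 0.27 with the length and span corrections. Genes called higher numbered 2771 with library totals and 2271 against a 2-fold change, and genes called lower 2770 against a 2-fold change, beside 5608 higher and 6050 lower. The cause of these shifts was not tested.

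Same-numbered mice of the 2 groups correlated at 0.068, 0.28, 0.31 and 0.11 in their deviations from the group means (mean 0.192, and -0.047 over the 16 other pairs). Of the 4 values 3 were over 0.1 and 1 was not, and the labels give no shared animal or batch, so the samples are taken to share a number only. With the replicate block 9 of the 10 genes were lower, and 2 nuclear cofactors in place of 4 were higher (7 with the gene span correction). In shares and ratios the block (4 pairs, exact sign-flip test, smallest p 0.125) could not pass the threshold: the differences were -7.83 points for *Lef1*, 14.8 for *Tcf7* and -9.05 for *Tcf7l1*, and -1.46 for *Apc*:*Ctnnb1*, -0.82 for *Gsk3b*:*Ctnnb1*, -2.94 for *Bcl9l*:*Ctnnb1*, -1.59 for *Axin2*:*Axin1*, -1.25 for *Bcl9l*:*Bcl9* and -1.12 for *Tcf7l1*:*Tcf7l2* on the log2 scale.

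With a mouse left out, shares differed by -8.03 to -5.43 points for *Lef1*, 14.7 to 19.9 for *Tcf7*, -11.8 to -9.05 for *Tcf7l1* and -2.65 (without *Supt6*-KO mouse 3) to 4.21 for *Tcf7l2*, which was also negative without control mouse 1 (-0.19). The log2 ratios ranged from -1.59 to -1.42 (*Apc*:*Ctnnb1*), -0.90 to -0.72 (*Gsk3b*:*Ctnnb1*), -3.19 to -2.85 (*Bcl9l*:*Ctnnb1*), -1.75 to -1.58 (*Axin2*:*Axin1*), -1.48 to -1.12 (*Bcl9l*:*Bcl9*) and -1.47 to -0.91 (*Tcf7l1*:*Tcf7l2*). Without a *Supt6*-KO mouse the smallest exact p is 0.0357, and no share or ratio then passed after adjustment. The share of *Tcf7* held without control mouse 2 alone and the ratio of *Tcf7l1* to *Tcf7l2* without control mouse 3 alone. *Gsk3b*:*Gsk3a* ranged from -0.34 (without control mouse 2, where it passed, adjusted exact permutation p = 0.038) to -0.19. Shares computed without lengths, or with lengths implied by the deposited TPM (added after the data were seen), kept their direction and call. *Lef1* rests on 4 to 11 counts in each *Supt6*-KO mouse, which limits its precision.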
